A study of Chlorocebus sabaeus with 3 samples.

Results

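Matrix metalloproteinases, their tissue inhibitors, and the related ADAM and ADAMTS proteases were examined in 3 tissues of the vervet monkey eye. The 35 genes were chosen as members of these families by name, with earlier results of these data known. They are not all the genes of these families on the array. All 35 had at least 1 probe set with a single gene symbol, out of 19775 such genes on the array. RNA of limbus, cornea, and conjunctiva was measured on 3 arrays of human probes, 1 per tissue. The limbus sample was a rim of epithelium with the superficial stroma, the corneal sample the central epithelium with the superficial stroma, and the conjunctival sample the membrane with the Tenon tissue below it. The 3 groups differ in tissue alone and were taken after death from eyes of vervets obtained by tissue sharing, with no treatment named. The study describes the 3 tissues as coming from the same eye, and the number of animals behind each sample is not given in the sources used here.

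Matrix metalloproteinases (MMPs) are zinc enzymes that cut collagens, laminins, and other matrix proteins. They are made as inactive proforms and are held in check by tissue inhibitors (TIMPs). ADAM proteases sit in the cell membrane and shed growth factors, receptors, and cadherins, while ADAMTS proteases are secreted and cut proteoglycans or the ends of procollagens. On the ocular surface these enzymes are known for the remodeling of the stroma and the epithelial basement membrane after injury.

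The values were RMA intensities on a linear scale, normalized by the authors. Where a gene had several probe sets, the brightest by mean log2 value over the 3 tissues stood for it; 12 members had 1 probe set and 23 had several, 87 in all. Human probes bind monkey transcripts unequally, so levels of different genes were not compared. Since every tissue had 1 array, replicate error is unknown and differences are given as descriptions without p-values. A gene was counted when 2 tissues differed by at least 2-fold. The median intensity of all probe sets was 49.0 in limbus, 48.8 in cornea, and 50.7 in conjunctiva, and an intensity of at least 100 was used as the mark of a clear level. Markers were compared with the labels of cornea and conjunctiva. Of the corneal epithelial markers, 4 of 4 had at least 2-fold more signal in cornea than conjunctiva, and 6 of 6 goblet cell and mucosal markers had at least 2-fold less. This pair does not bear on the limbus label, and KRT13 and KRT4 of the mucosal markers were highest in the limbus.

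An intensity of at least 100 in 1 or more tissues was reached by 21 of the 35 members. The 8 genes MMP2, MMP7, MMP9, TIMP1, ADAM9, ADAM19, ADAMTS1, and ADAMTS5 differed at least 2-fold between some pair of tissues, and all 8 were among the 21. They were 22.9% of the 35 members, against 13.9% of all genes, and 38.1% of the 21, against 20.3% of all genes reaching 100. On the deposited scale the conjunctiva was the highest tissue for all 8. After the scaling to hybridization controls described further on, the limbus exceeded the conjunctiva for MMP2 and MMP9. Those log2 differences were 0.075 for MMP2 and 0.32 for MMP9, while the other genes of the 8 stayed lower in the limbus. On their chosen probe sets the 14 members that did not reach 100 stayed between 14.9 and 99.7. Their largest ratio between tissues was 1.96-fold, that of ADAMTS9.

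**Figure D1:**
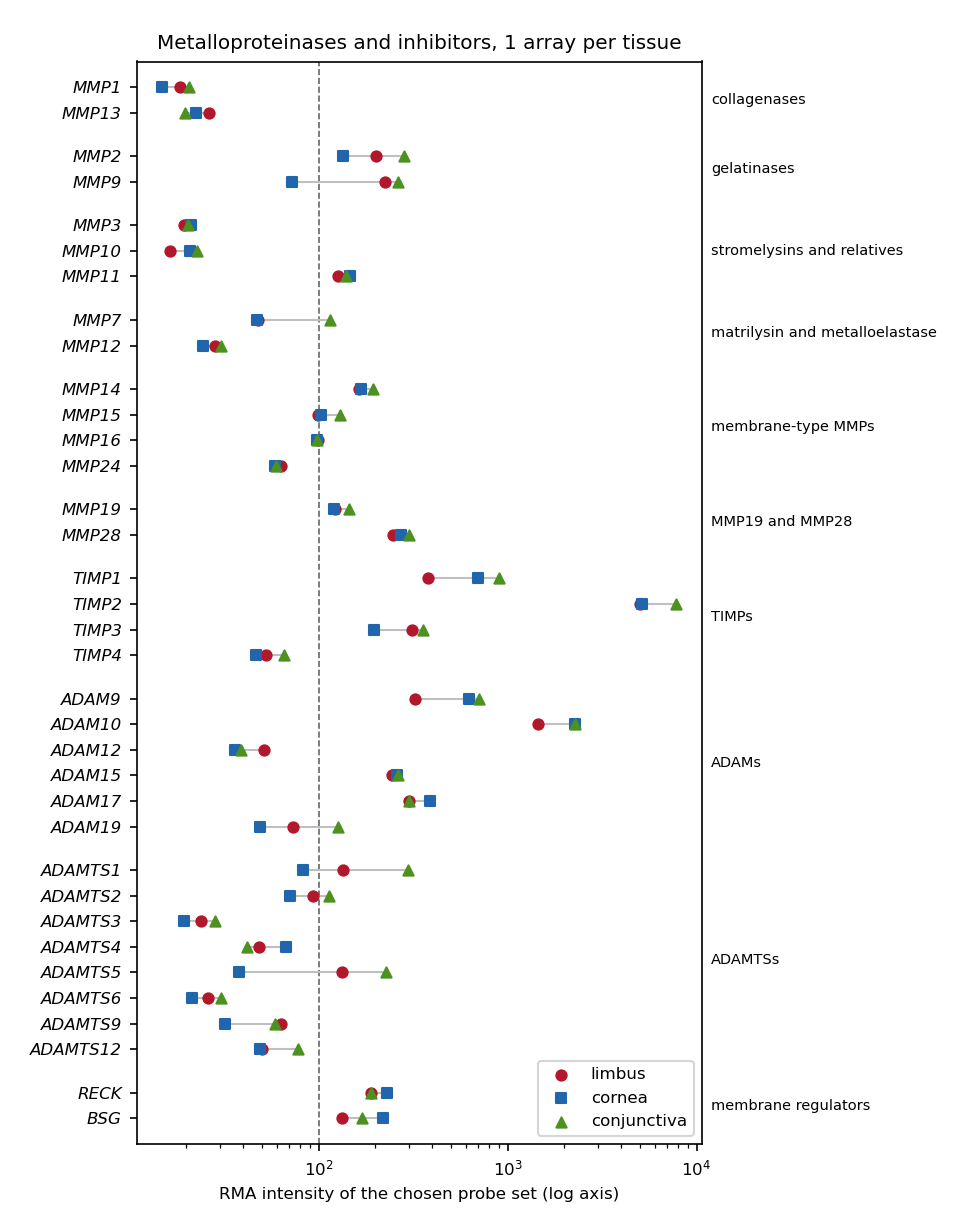
RMA intensity (log axis) of each member in limbus (circles), cornea (squares), and conjunctiva (triangles), 1 array each, grouped by role; the dashed line marks 100. MMP9, ADAMTS1, and ADAMTS5 have their cornea value at the left end of a wide span, while TIMP1 and ADAM9 have their limbus value there.

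Between the cornea and the conjunctiva, 6 of 35 members (17.1%) were at least 2-fold lower in the cornea, against 5.68% of all genes, and 0 were at least 2-fold higher, against 5.31% of all genes. The 6 were MMP2, MMP7, MMP9, ADAM19, ADAMTS1, and ADAMTS5. Between the limbus and the conjunctiva, 4 members (11.4%) were at least 2-fold lower in the limbus, against 2.31% of all genes, namely MMP7, TIMP1, ADAM9, and ADAMTS1. In that pair 0 members passed 2-fold in favor of the limbus, against 2.62% of all genes. Between the limbus and the cornea, 2 members (5.71%) passed 2-fold in favor of the limbus, MMP9 and ADAMTS5, against 4.06% of all genes, and 0 were at least 2-fold lower, against 2.51%. The limbus and cornea counts were thus close to those of the whole array.

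By the rule of the study, which asks for a 2-fold difference from both other tissues, 0 members were counted for the limbus on the chosen probe sets (0.475% of all genes) and 0 for the cornea (1.89%). Over all 87 probe sets, 1 met the rule for the limbus, the second TIMP3 probe set described further on. MMP7 and ADAMTS1 were the 2 members counted for the conjunctiva (5.71% of members, 1.68% of all genes). These shares describe 3 arrays and were not tested.

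**Figure D2:**
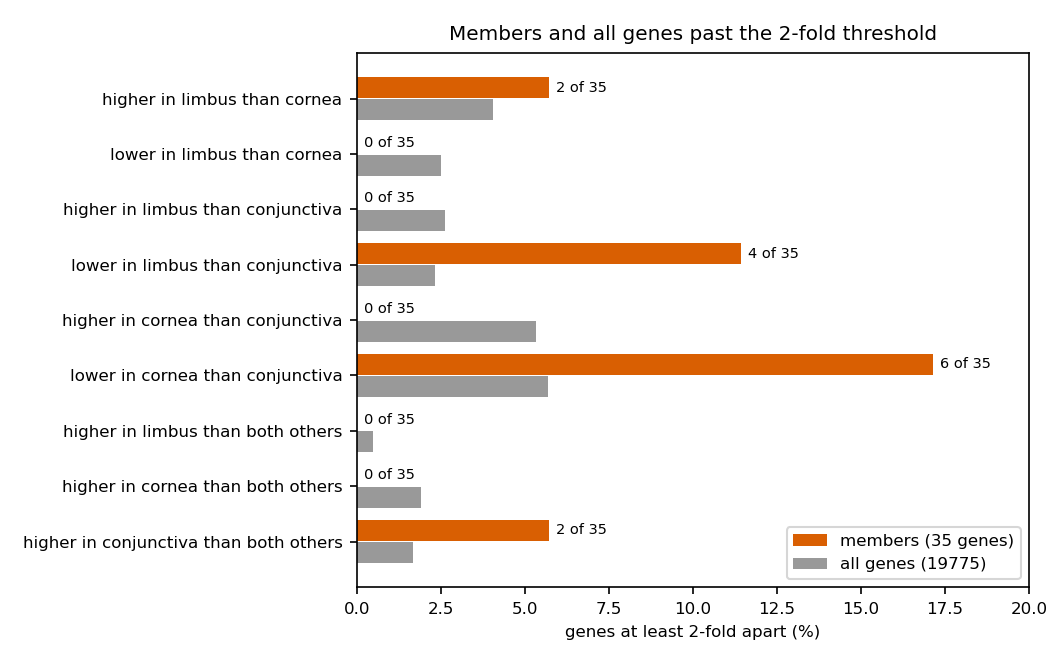
Percentage of the 35 members and of all 19775 genes at least 2-fold apart, for each direction of each pair of tissues and for each tissue against both others; the count of members stands at each bar. The widest gaps from all genes are the 6 members lower in the cornea than in the conjunctiva and the 4 lower in the limbus than in the conjunctiva.

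Among the 21 members with a level of at least 100, the limbus was below the conjunctiva for 20 and the cornea was below the conjunctiva for 16. Over all genes with such a level the shares were 50.3% and 45.0%. With the median log2 value over the probe sets of each gene, the counts fell to 15 and 14 of the 21. The median log2 difference over the 35 members was 0.02 for the limbus minus the cornea, -0.25 for the limbus minus the conjunctiva, and -0.32 for the cornea minus the conjunctiva. The same medians over all genes were -0.05, -0.04, and 0.01. Over 28 other MMP, ADAM, and ADAMTS genes that are not members they were 0.005, 0.014, and 0.047. Of these 28, 7 were highest in the conjunctiva, against 23 of the 35 members, so the lower medians of the members were not shared by the wider families. When the arrays were rescaled so that their hybridization controls had equal means, the limbus was below the conjunctiva for 8 of the 21 with a member median of 0.30, and the cornea was below the conjunctiva for 18 of the 21 with a member median of -0.57. That scaling moved the median of all genes as well, to 0.76 for the limbus minus the cornea, 0.52 for the limbus minus the conjunctiva, and -0.24 for the cornea minus the conjunctiva. One factor per array moves every gene alike. For the limbus minus the conjunctiva, the member median was below that of all genes on both scales, at -0.25 against -0.04 and at 0.30 against 0.52. The same held for the cornea minus the conjunctiva, at -0.32 against 0.01 and at -0.57 against -0.24. The share of all genes below the conjunctiva after that scaling was not computed.

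**Figure D3:**
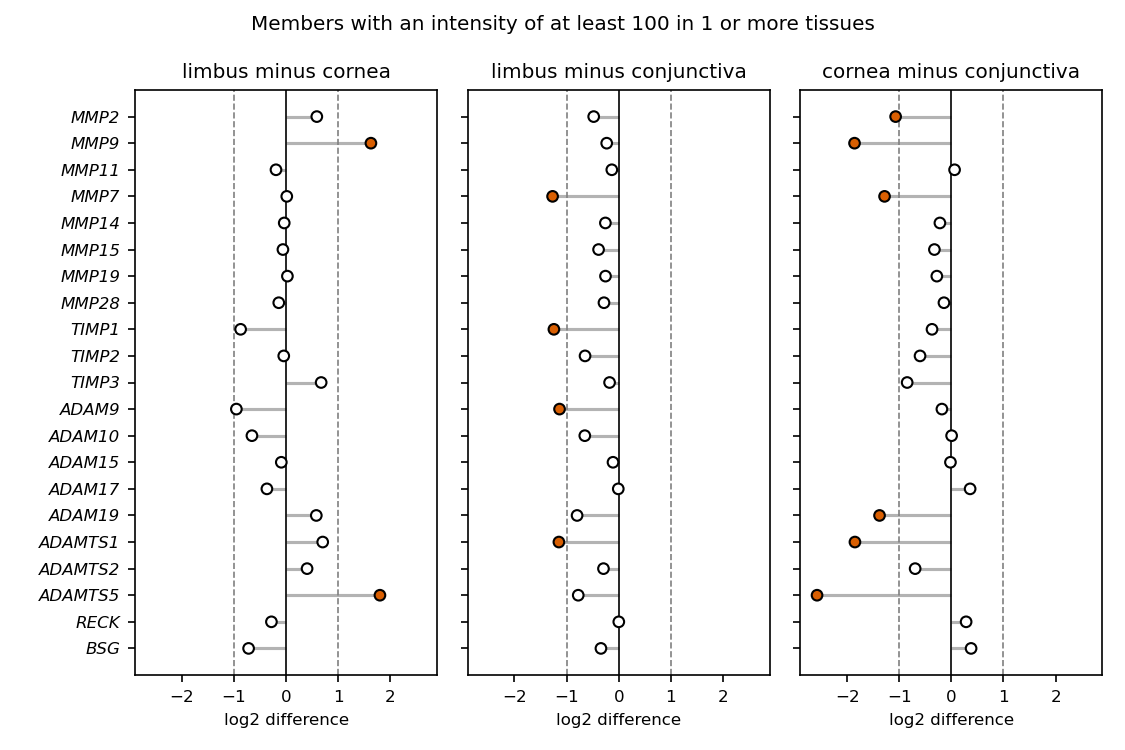
Log2 difference between tissues for the 21 members with an intensity of at least 100 in 1 or more tissues; filled points are at least 2-fold apart (dashed lines). In the middle panel 20 of 21 points lie left of 0, against 8 of 21 after scaling to the hybridization controls, which moves all genes up alike in that pair. With the median log2 value over probe sets the count is 15 of 21.

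The gelatinases digest denatured collagen and the type IV collagen of basement membranes. MMP9 (gelatinase B) had an intensity of 224 in limbus, 72.6 in cornea, and 263 in conjunctiva. The cornea stood apart from the other tissues, with the limbus 3.09-fold above it, and the cornea was 3.62-fold lower than the conjunctiva. MMP9 had a single named probe set, and both differences stayed past 2-fold with 32 added to each value and with quantile normalization. MMP2 (gelatinase A), which keratocytes and fibroblasts make constitutively, had 202 in limbus, 134 in cornea, and 282 in conjunctiva. MMP2 was 2.10-fold lower in the cornea than in the conjunctiva, with the limbus in between. Its other 2 probe sets were at 55.3 or lower in all tissues and were under 2-fold apart.

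Levels in such tissue samples combine how many cells of a type are present with how much RNA each holds, and these cannot be told apart. Marker genes of cell types that these samples can hold also differed between them, and their sums are dominated by the brightest probe sets. All 4 endothelial markers were highest in the limbus or the conjunctiva, with summed intensities of 1148 in limbus, 316 in cornea, and 1897 in conjunctiva. The 5 fibroblast and Tenon markers summed to 11586 in limbus, 13732 in cornea, and 21169 in conjunctiva, and 3 of the 5 were at least 2-fold lower in the cornea than in the conjunctiva. The cornea sum was mostly DCN, at 5084 in limbus, 9335 in cornea, and 6415 in conjunctiva, while the other 4 were lowest in the cornea, COL3A1 at 519 in limbus, 46.3 in cornea, and 2105 in conjunctiva. The 4 keratocyte markers ran opposite to MMP2, all highest in the cornea and lowest in the conjunctiva, with sums of 5145 in limbus, 14826 in cornea, and 3117 in conjunctiva. Smooth muscle and pericyte markers (4 genes) summed to 1168 in limbus, 360.5 in cornea, and 3194 in conjunctiva. The gap between limbus and cornea came from ACTA2 (431 in limbus, 76.4 in cornea) and RGS5 (470 in limbus, 30.9 in cornea). MYH11 (160 in limbus, 142 in cornea) and DES (108 in limbus, 111 in cornea) were close in that pair. Neutrophil markers (7 genes) summed to 833 in limbus, 390.3 in cornea, and 823 in conjunctiva, with S100A9, which epithelia also make, at 452 in limbus, 75.2 in cornea, and 456 in conjunctiva. The neutrophil granule genes ELANE, MPO, and CEACAM8 lay between 15.8 and 52.4 in all 3 tissues. Of the macrophage and monocyte markers, 4 of 5 were read, and all 4 were highest in the conjunctiva. CD14 was at 157 in limbus, 97.7 in cornea, and 186 in conjunctiva. CSF1R was at 153 in limbus, 113 in cornea, and 185 in conjunctiva, and CD163 lay between 40.3 and 46.9. The sum was 3520 in limbus, 4159 in cornea, and 8844 in conjunctiva. Most of it was LYZ, which glands also secrete and which was lowest in the limbus. The part of these cell types in the differences of MMP2, MMP9, and the ADAMTS genes described further on was not tested.

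MMP7 (matrilysin), a small MMP that epithelia and glands secrete, had an intensity of 47.6 in limbus, 47.2 in cornea, and 115 in conjunctiva. The limbus was 2.41-fold and the cornea 2.43-fold lower than the conjunctiva, and the limbus and the cornea were alike to within 1.01-fold. MMP7 had 1 probe set, and its limbus and cornea values lay under the median of their arrays. With 32 added to each value, its log2 difference was -0.88 for the limbus minus the conjunctiva and -0.89 for the cornea minus the conjunctiva, short of 2-fold. The 6 goblet cell and mucosal markers summed to 8868 in limbus, 1944 in cornea, and 11106 in conjunctiva. Most of the limbus sum was KRT13 and KRT4, keratins of the mucosal epithelium that were highest in the limbus. The 4 goblet and secretory markers were highest in the conjunctiva, with MUC5AC at 127 in limbus, 102 in cornea, and 1618 in conjunctiva, TFF1 at 222 in limbus, 83.7 in cornea, and 1568 in conjunctiva, TFF3 at 42.5 in limbus, 53.7 in cornea, and 131 in conjunctiva, and AGR2 at 595 in limbus, 1220.4 in cornea, and 4718 in conjunctiva. Like MMP7, all 4 were lower in the limbus and in the cornea than in the conjunctiva, and their part in the MMP7 difference was not tested.

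The collagenases, which make the first cut in fibrillar collagen, gave low intensities in all 3 tissues. MMP1 (interstitial collagenase) was at 18.5 in limbus, 14.9 in cornea, and 20.5 in conjunctiva, and MMP13 (collagenase 3) at 26.4 in limbus, 22.3 in cornea, and 19.6 in conjunctiva. The stromelysins MMP3 and MMP10, which cut laminin and proteoglycans and activate other MMPs, gave low intensities too. MMP3 was at 19.4 in limbus, 21.0 in cornea, and 20.5 in conjunctiva, and MMP10 at 16.4 in limbus, 20.9 in cornea, and 22.8 in conjunctiva. MMP12 (macrophage metalloelastase) was at 28.4 in limbus, 24.4 in cornea, and 30.6 in conjunctiva. These intensities lay around the lower quartile of the arrays (23.7 to 24.5), where ratios between tissues were not read. Each of these genes had 1 human probe set, which may bind the monkey transcript weakly, so a low intensity was not read as absent RNA.

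In the vervet RefSeq annotation (mChlSab1.0.hap1), 9 MMP genes follow each other without another protein-coding gene between them, in the order MMP7, MMP20, MMP27, MMP8, MMP10, MMP1, MMP3, MMP12, and MMP13. Of these, 6 are members. Of all 9, MMP7 alone reached 100 in any tissue, in the conjunctiva, on human probes that may bind the 9 transcripts unequally. MMP8 (neutrophil collagenase) was at 18.8 in limbus, 19.6 in cornea, and 17.2 in conjunctiva, and MMP20 (enamelysin) and MMP27 lay between 12.8 and 35.3. MMP11 (stromelysin 3), which is activated inside the cell by furin and lies elsewhere in the genome, was at 127 in limbus, 146 in cornea, and 139.8 in conjunctiva, and its other 3 probe sets were under 2-fold apart as well.

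The membrane-type MMPs act at the cell surface, and MMP14 together with TIMP2 activates the proform of MMP2. MMP14 had 163 in limbus, 168 in cornea, and 195 in conjunctiva, so that its tissues lay within 1.19-fold. Of its other 3 probe sets, that with the widest span had 140.1 in limbus, 96.5 in cornea, and 141 in conjunctiva, and in all 3 the cornea was lowest. MMP15 was at 99.0 in limbus, 103 in cornea, and 129 in conjunctiva. MMP16 and MMP24, both known from the nervous system, were under 100 in all tissues on their chosen probe sets and within 1.07-fold.

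Another 2 secreted MMPs had clear levels and small differences. MMP28 (epilysin), an enzyme of resting and healing epithelia, was at 249 in limbus, 274 in cornea, and 303 in conjunctiva. The ID of its probe set carries the suffix for probes that match several transcripts, as do those of ADAM17 and RECK, and the other 4 MMP28 probe sets were under 100. MMP19 was at 122 in limbus, 120.3 in cornea, and 146 in conjunctiva.

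All 4 TIMPs were highest in the conjunctiva on their chosen probe sets, as were 36.7% of all genes. Their median log2 difference was -0.49 for the limbus minus the conjunctiva (0.07 after scaling to the hybridization controls). For the cornea minus the conjunctiva it was -0.55 (-0.80 after that scaling). TIMP1, a soluble inhibitor of most secreted MMPs, had an intensity of 381 in limbus, 699 in cornea, and 903 in conjunctiva. The limbus was the low tissue, 2.37-fold lower than the conjunctiva and at 0.546 of the cornea. TIMP1 had a single named probe set. After scaling to the hybridization controls, its limbus minus conjunctiva difference was -0.69 on the log2 scale and no longer 2-fold.

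TIMP2 was read from 3 probe sets, all with clear levels and all highest in the conjunctiva. The chosen one had 4993 in limbus, 5156 in cornea, and 7816 in conjunctiva. A second probe set had 869.5 in limbus, 477 in cornea, and 1328 in conjunctiva, and the third 158 in limbus, 117 in cornea, and 394 in conjunctiva. The cornea was 1.52-fold, 2.78-fold, and 3.37-fold lower than the conjunctiva on the 3 probe sets in that order, so the dimmer probe sets crossed 2-fold and the chosen one did not. The limbus was 1.57-fold, 1.53-fold, and 2.50-fold lower than the conjunctiva.

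TIMP3 binds to the matrix and inhibits ADAM17 and the aggrecanases besides MMPs. All 4 of its probe sets were lowest in the cornea. The chosen one had 314 in limbus, 197 in cornea, and 355 in conjunctiva, with the limbus 1.59-fold above the cornea and the cornea 1.80-fold lower than the conjunctiva. A second probe set was highest in the limbus, at 149.5 in limbus, 47.6 in cornea, and 65.5 in conjunctiva, which is 3.14-fold above the cornea and 2.28-fold above the conjunctiva. The probe sets thus shared the low cornea and differed on which of the other tissues was higher. TIMP4 was at 52.5 in limbus, 46.6 in cornea, and 65.9 in conjunctiva.

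**Figure D4:**
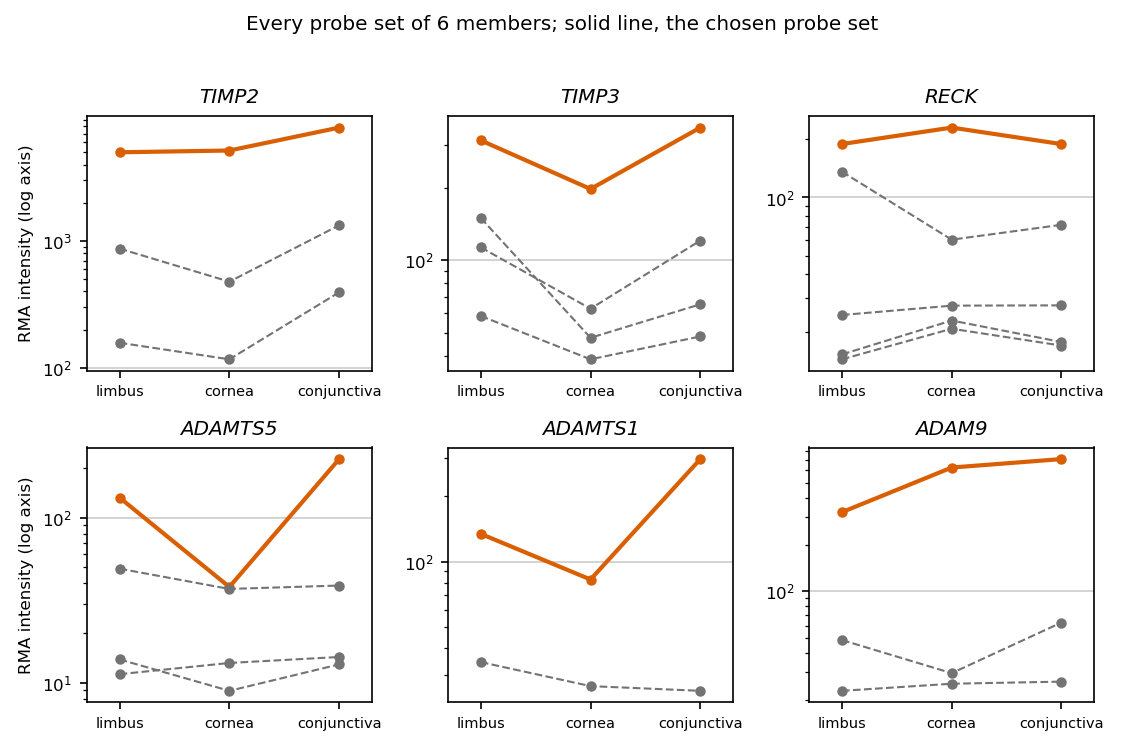
RMA intensity (log axis) in limbus, cornea, and conjunctiva for every probe set of TIMP2, TIMP3, RECK, ADAMTS5, ADAMTS1, and ADAM9; solid lines are the chosen probe sets and the grey line marks 100. The low cornea is shared by all 4 TIMP3 probe sets, while the steep ADAMTS5 and ADAMTS1 patterns are seen on 1 probe set each.

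RECK, a membrane-anchored inhibitor of MMPs, was flat on its chosen probe set, with 189 in limbus, 230.1 in cornea, and 189 in conjunctiva. The only other RECK probe set that reached 100 was highest in the limbus, with 136 in limbus, 60.5 in cornea, and 72.2 in conjunctiva. On it the limbus exceeded the cornea 2.25-fold and the conjunctiva 1.88-fold. BSG (basigin, or EMMPRIN), a glycoprotein that induces MMPs in neighboring fibroblasts, had 134 in limbus, 221 in cornea, and 169.6 in conjunctiva on its single probe set, and did not reach 2-fold in any pair.

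The ADAMs shed proteins from the cell surface. On the chosen probe sets 4 of the 6 had their lowest value in the limbus, as did 33.0% of all genes. The median log2 difference of the 6 was -0.23 for the limbus minus the cornea, which became 0.57 after scaling to the hybridization controls. ADAM9, a sheddase of many epithelia, was at 323 in limbus, 627 in cornea, and 710.2 in conjunctiva, so that the limbus was 2.20-fold lower than the conjunctiva and at 0.516 of the cornea. ADAM10, the sheddase of Notch receptors and E-cadherin, was at 1445 in limbus, 2277 in cornea, and 2269 in conjunctiva. On the chosen probe sets of both genes the cornea and the conjunctiva were close and the limbus was low, and TIMP1 had its lowest value there as well. That limbus value of ADAM10 was 0.634 of the cornea and 0.637 of the conjunctiva, short of the 2-fold threshold. The other probe sets of both genes were under 100. Of ADAM9, 1 was lowest in the cornea, at 48.5 in limbus, 29.7 in cornea, and 62.9 in conjunctiva, and the other was lowest in the limbus. Those of ADAM10 were lowest in the conjunctiva. After scaling to the hybridization controls, the limbus minus conjunctiva difference was -0.58 for ADAM9 and -0.0955 for ADAM10 on the log2 scale.

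ADAM19 (meltrin beta), known for the shedding of neuregulin, had the order of the gelatinases, with 73.0 in limbus, 48.9 in cornea, and 127 in conjunctiva. It was 2.60-fold lower in the cornea than in the conjunctiva, and its second probe set was under 100 and nearly flat between them (1.02-fold). ADAM17, which releases TNF and the ligands of the EGF receptor, was at 301 in limbus, 389 in cornea, and 303 in conjunctiva. A second ADAM17 probe set at a clear level had 136 in limbus, 182 in cornea, and 218 in conjunctiva, so the highest tissue depended on the probe set. ADAM15 was at 244 in limbus, 260.0 in cornea, and 263 in conjunctiva, and ADAM12 was at 51.2 in limbus, 36.1 in cornea, and 38.8 in conjunctiva.

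ADAMTS proteases had the largest difference of the list. Of the 8, 7 were lowest in the cornea, as were 33.2% of all genes. The median log2 difference of the 8 was -0.68 for the cornea minus the conjunctiva. Only 3 of the 8 reached 100 in 1 or more tissues. The median over the 8 was -0.41 with the median log2 difference over the probe sets of each gene and -0.19 with the median log2 value over them. ADAMTS5, the main aggrecanase of cartilage in mice, had 132 in limbus, 38.1 in cornea, and 227 in conjunctiva. The limbus exceeded the cornea 3.48-fold, and the cornea was 5.96-fold lower than the conjunctiva. Only the chosen ADAMTS5 probe set reached 100; the other 3 were at 49.1 or lower and were at most 1.55-fold apart. With the median of the log2 differences over its probe sets, the 2 differences became 0.52 and -0.33.

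ADAMTS1, a versicanase that responds to inflammation and hypoxia, had 134 in limbus, 82.6 in cornea, and 298 in conjunctiva. The conjunctiva was high against both other tissues, with the limbus 2.22-fold and the cornea 3.60-fold lower. The second ADAMTS1 probe set, at 34.3 in limbus, 26.6 in cornea, and 25.3 in conjunctiva, did not show this order. ADAMTS2, which removes the amino-terminal propeptide of fibrillar procollagens, was at 93.2 in limbus, 70.6 in cornea, and 114 in conjunctiva. The versicanase ADAMTS9 was at 63.0 in limbus, 32.1 in cornea, and 59.1 in conjunctiva and just missed the threshold, with the limbus 1.96-fold above the cornea. ADAMTS4, another aggrecanase, was the exception among the 8, with 48.1 in limbus, 67.1 in cornea, and 41.8 in conjunctiva. ADAMTS3, ADAMTS6, and ADAMTS12 lay between 19.4 and 77.8 in all tissues, each with the highest value in the conjunctiva. ADAMTS3 and ADAMTS6 were around the lower quartile of the arrays. The other ADAMTS12 probe set was highest in the cornea, at 46.1 in limbus, 73.0 in cornea, and 51.3 in conjunctiva.

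Of the 52 probe sets that were not chosen, 10 reached 100. Among them 4 were at least 2-fold apart where the chosen probe set was not, namely 2 of TIMP2, 1 of TIMP3, and 1 of RECK. None of these 10 belonged to 1 of the 8 genes that were at least 2-fold apart. MMP7, MMP9, and TIMP1 had no other probe set. For MMP2, ADAM9, ADAM19, ADAMTS1, and ADAMTS5 the other probe sets were all under 100.

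Genes that act with these proteases were read from 6 lists, with 78 genes found on the array. For comparison, 4.06% of all genes were at least 2-fold higher and 2.51% lower in limbus than in cornea. Against the conjunctiva, 2.62% were higher and 2.31% lower in the limbus, and 5.31% higher and 5.68% lower in the cornea. The lists are small, and their counts were not tested. Among 28 other MMP, ADAM, and ADAMTS genes, 2 were higher by 2-fold or more and 0 lower in limbus than in cornea, 2 higher and 0 lower in the limbus than in the conjunctiva, and 2 higher and 3 lower in the cornea than in the conjunctiva. ADAMTSL1, an ADAMTS-like matrix glycoprotein without protease activity, shared the low cornea, at 247 in limbus, 58.2 in cornea, and 256 in conjunctiva, as did ADAMTS8 at 116 in limbus, 39.1 in cornea, and 97.7 in conjunctiva. ADAMTS18 was higher in the limbus, at 125 in limbus, 63.5 in cornea, and 59.4 in conjunctiva. The cornea was high for papilin (PAPLN), an ADAMTS-like glycoprotein, at 178 in limbus, 274 in cornea, and 45.0 in conjunctiva, and for ADAM8 at 112 in limbus, 191 in cornea, and 92.0 in conjunctiva.

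Among 15 genes that activate proforms or control that step, 1 was lower by 2-fold or more in limbus than in cornea, 1 lower in limbus than in conjunctiva, and 1 higher and 2 lower in cornea than in conjunctiva. The furin-like convertase PCSK5 was at 1294 in limbus, 5304 in cornea, and 829 in conjunctiva. PLAT, the tissue plasminogen activator, was at 121 in limbus, 120.5 in cornea, and 545 in conjunctiva. On the deposited scale no gene of these 15 reached 2-fold in the limbus over the cornea (4.06% of all genes) or the conjunctiva (2.62%). After scaling to the hybridization controls 6 did so against the cornea (27.9% of all genes) and 2 against the conjunctiva (13.1% of all genes). Among 9 broad inhibitors and uptake genes, 2 were higher by 2-fold or more and 1 lower in limbus than in cornea, 3 higher in limbus than in conjunctiva, and 2 higher and 2 lower in cornea than in conjunctiva. A2M (alpha-2-macroglobulin), which traps proteases of all classes, had 399 in limbus, 44.1 in cornea, and 493 in conjunctiva. The limbus thus exceeded the cornea 9.06-fold for A2M. The testicans SPOCK1 and SPOCK2, proteoglycans that modulate membrane-type MMPs, ran in opposite directions, with SPOCK1 at 105 in limbus, 279.8 in cornea, and 29.0 in conjunctiva and SPOCK2 at 237 in limbus, 70.2 in cornea, and 403 in conjunctiva. Thrombospondin 2 (THBS2), which takes part in the uptake of MMP2, was at 399.9 in limbus, 264 in cornea, and 178 in conjunctiva, and THBS1 at 164 in limbus, 166 in cornea, and 77.2 in conjunctiva.

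Among 14 inducers of MMP genes, 3 were higher by 2-fold or more and 1 lower in limbus than in cornea, 1 higher and 1 lower in limbus than in conjunctiva, and 1 higher and 3 lower in cornea than in conjunctiva. FOS, JUN, and ETS1, whose products bind AP-1 and ETS sites, were lower in the cornea than in the limbus and in the conjunctiva, by at least 2-fold each. FOS was at 209 in limbus, 39.6 in cornea, and 289.6 in conjunctiva, JUN at 638 in limbus, 142 in cornea, and 515 in conjunctiva, and ETS1 at 296 in limbus, 75.3 in cornea, and 484 in conjunctiva. The other AP-1 genes of the list did not share this difference. JUNB was highest in the cornea, at 386 in limbus, 392 in cornea, and 204 in conjunctiva. FOSL1 was under 100, at 74.2 in limbus, 58.4 in cornea, and 63.2 in conjunctiva. The cytokine TGFB2 had the reverse order, with 582 in limbus, 2427 in cornea, and 123 in conjunctiva, and TGFB1 was at 54.4 in limbus, 90.9 in cornea, and 115 in conjunctiva. Of 7 regulators of ADAM10 and ADAM17, the tetraspanins TSPAN33 (467 in limbus, 138.5 in cornea, and 350.0 in conjunctiva) and TSPAN5 (187 in limbus, 299 in cornea, and 142 in conjunctiva) differed at least 2-fold between some pair. Of 5 ADAMTS substrates, versican (VCAN) was at 98.3 in limbus, 66.8 in cornea, and 155 in conjunctiva, fibulin 1 (FBLN1) at 255 in limbus, 168 in cornea, and 343 in conjunctiva, and aggrecan (ACAN) at 84.0 in limbus, 106 in cornea, and 201 in conjunctiva. VCAN and FBLN1 were at least 2-fold lower in the cornea than in the conjunctiva, and ACAN was at least 2-fold lower in the limbus than in the conjunctiva.

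**Figure D5:**
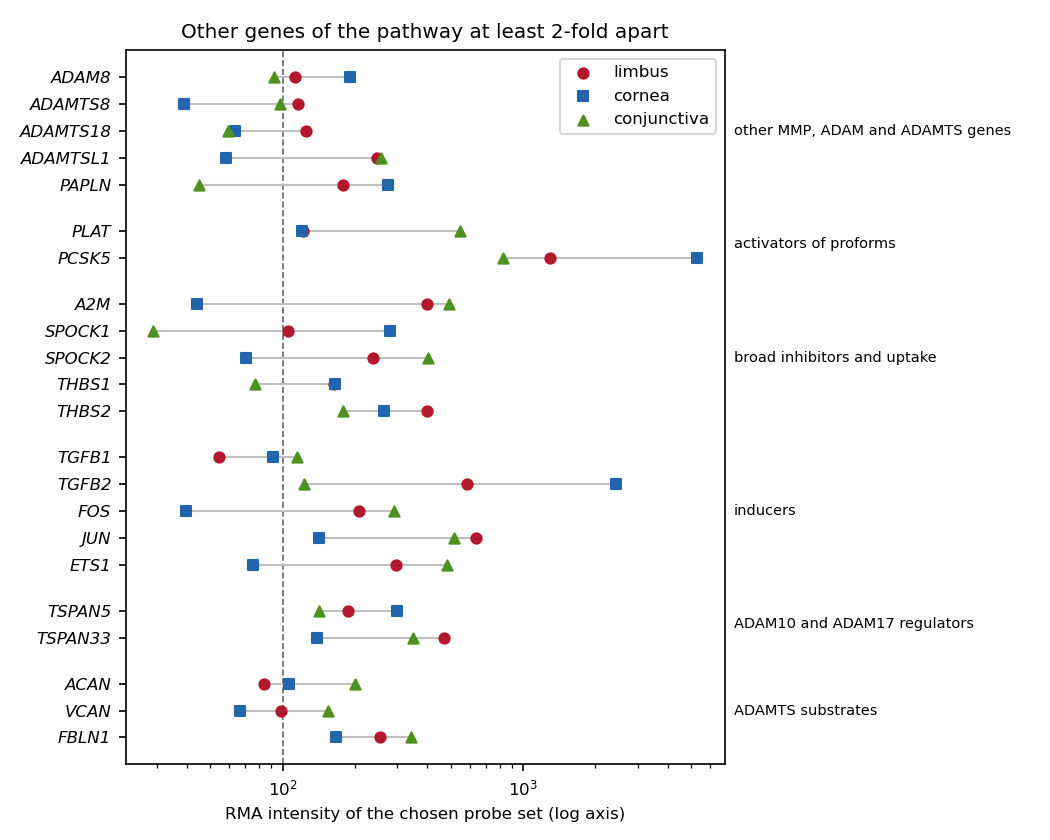
RMA intensity (log axis) in limbus (circles), cornea (squares), and conjunctiva (triangles) of the 22 other genes of the pathway with at least 100 in 1 or more tissues and at least 2-fold between a pair. A2M, FOS, ETS1, and SPOCK2 have a low cornea as MMP9 and ADAMTS5 do, while PCSK5, SPOCK1, and TGFB2 are highest there.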

How the data were processed

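Total RNA of each tissue was amplified in 2 rounds and hybridized to Affymetrix human U133 Plus arrays. The authors deposited linear RMA intensities (version not given in the sources used here), for which each array was normalized with a fixed pool of reference arrays and not with the other 2. Scale differences between the 3 arrays can therefore remain. The table held 54675 probe sets, 0 missing values, and 0 columns of other samples; 41097 probe sets had a single symbol in the platform annotation and could be used. Probe sets with several symbols (1801) were left out, and some genes of the lists were not analysed here.

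Everything else was computed with Python 3.11.15, numpy 2.4.6, and pandas 2.3.3, and plotted with matplotlib 3.10.9. Each gene was represented by its brightest probe set (mean log2 value over the tissues), and ratios were taken without a filter on level. The counting was tested on simulated data. Values are given in the text for members that reached 100 or differed 2-fold between tissues, and for some others by role. Other pathway genes are named where they reached 100 and differed 2-fold, and some others for comparison. The members and lists were chosen with earlier results of these data known. Since each tissue had 1 array, nothing was tested, and precision is limited by the array number. Alternatives varied the fold threshold, a minimum level, an added 32, array scaling, and the choice of probe set.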

Additional observations from a re-analysis of the deposited data

How the results depend on the processing

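Of the 12 differences between tissues of at least 2-fold, 12 stayed past 2-fold with quantile normalization of the 3 arrays and with probe sets of the multiple-transcript suffix left out (chosen after seeing the data, and which adds RECK, 2.25-fold above the cornea in the limbus), 8 with scaling to hybridization controls, 7 with a pseudocount of 32, and 5 with either way of taking medians across probe sets. The direction turned once: with the median log2 value over its probe sets, MMP2 had 0.0534 for the cornea minus the conjunctiva. For MMP2 that median fell on the same probe set in all 3 tissues. This probe set was at 47.5 in limbus, 55.3 in cornea, and 53.3 in conjunctiva, under 100 throughout.

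At 1.5-fold, 6 members were higher and 4 lower in limbus than in cornea (9.82% and 10.4% of all genes), 9 were lower in the limbus than in the conjunctiva (9.11%), 1 was higher and 11 lower in the cornea than in the conjunctiva (13.2% and 12.8%), and 6 were higher in the conjunctiva than in both others (5.31%). At 3-fold, 0 were lower in the limbus (0.566% of all genes) and 3 lower in the cornea (2.86%) than in the conjunctiva. At that threshold 0 were higher in the conjunctiva than in both others (0.501%). With a pseudocount of 32 these 3 counts at 2-fold were 2, 3, and 0, against 1.26%, 3.84%, and 1.06% of all genes. The member median for the cornea minus the conjunctiva was then -0.19. With the median log2 difference over probe sets the 3 counts were 2, 3, and 1, and the shares of all genes were not computed. In that setting 1 member was higher in limbus than cornea, and the median was -0.15 for the limbus minus the conjunctiva. With the median log2 value over probe sets, 2 were lower in the limbus than in the conjunctiva (1.40% of all genes). In that setting 1 was higher in the conjunctiva than in both others (0.991%). Scaled to hybridization controls, 14 were higher in limbus than cornea, against 27.9% of all genes. In that setting 0 were lower in the limbus than in the conjunctiva (0.582% of all genes), and 0 were higher in the conjunctiva than in both others (0.576%). The medians were 0.83 for the limbus minus the cornea, 0.30 for the limbus minus the conjunctiva, and -0.57 for the cornea minus the conjunctiva. That scaling moves all genes of an array alike, multiplying the limbus by 1.40, the cornea by 0.805, and the conjunctiva by 0.956. No paired analysis was possible because each tissue had 1 array.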
